A study of Mus musculus with 2 samples.

Results

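The replication-dependent histone genes encode the bulk of the proteins that package newly copied DNA: the linker histone H1 and the core histones H2A, H2B, H3 and H4. The genes described here are all those of the deposited gene list whose symbols start with Hist1h, Hist2h, Hist3h or Hist4h and that had at least 1 UMI (unique molecular identifier, 1 per captured transcript molecule) in the series. Of 32285 genes, 67 have such symbols, and 60 of them had a UMI: 5 H1, 15 H2A, 16 H2B, 12 H3 and 12 H4 genes. The other 7, at 0 UMIs in both libraries, are Hist2h2aa2, Hist1h2bq, Hist1h4m, Hist1h2ah, Hist1h1t, Hist1h2ba and Hist1h2aa.

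The cells came from tumours of 4T1, a mouse mammary carcinoma line, grown in BALB/c mice, in the mammary fat pad, from an injection at 6 to 8 weeks of age. In the shPml group the 4T1 cells expressed a short hairpin RNA against Pml, the gene of the scaffold protein of PML nuclear bodies. In the shCTRL group they expressed a control hairpin. Tumours were taken 14 days after implantation, CD45+ cells (leukocytes) were sorted, and 1 droplet library (10x Chromium) was made per group. The injected line was the carrier of the hairpin and the sorted cells were leukocytes, so the level of Pml in these libraries checks nothing about the knockdown. How many mice gave each library is not known from the labels, and no test between the groups was possible with 1 library each. Intervals below are exact 95% intervals for counting error only, and UMIs that sit in a few cells vary more than they allow.

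In dividing cells these genes are switched on in S phase, when DNA is copied, and their mRNA is destroyed when S phase ends. Unlike other mRNAs they carry no poly(A) tail: the mRNA ends just after a short stem-loop, which is bound by the stem-loop binding protein SLBP. Some of the genes are also known to give a second, polyadenylated mRNA in cells that have stopped dividing. Droplet libraries prime on poly(A), so how much of each histone mRNA was captured is not known, and levels of different genes are set side by side only as shares of the captured histone UMIs. UMIs count molecules and were not divided by gene length.

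The stem-loop is shown first, since it marks where the replication-dependent mRNA ends and the genes differ in what the annotation places after it. The GENCODE M21 gene models (GRCm38) were searched for a window of 16 bases that can pair over 6 bases around a 4-base loop. At most 1 stem position could be unpaired, and a run of 4 T had to start at the last stem base before the loop. The window was found in 41 of the 60 genes and in 0.485% of all 141767 annotated transcripts. Of the 41, 25 carry the same 16 letters. In the lines below, each 5′ to 3′ on the coding strand, the capitals are the stem-loop and the lower case letters are the 14 bases before it.

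Hist1h2ap: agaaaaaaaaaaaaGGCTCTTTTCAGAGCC
Hist1h2ae: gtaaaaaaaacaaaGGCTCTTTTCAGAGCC
Hist1h1c: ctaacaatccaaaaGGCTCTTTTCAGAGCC
Hist1h2be: actcctaaaccaaaGGCTCTTTTCAGAGCC
Hist1h4i: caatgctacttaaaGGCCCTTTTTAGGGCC
Hist1h3a: cggaattaaccaaaGGCTCTTTTCAGAGCC

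Hist1h2ap, the gene with the most UMIs, has a run of 12 A directly before the stem-loop, and Hist1h2ae has a run of 8 A a few bases farther from it. Hist1h2ao, with 2 UMIs in the series, was the only other gene with a run of at least 8 A in the 30 bases before the stem-loop. The annotated model of Hist1h2ap ends 3 bases after the stem-loop. That of Hist1h3a, an H3 gene, ends 37 bases after it. The models of Hist1h4i, Hist1h1c and Hist1h2be run on for 330, 840 and 1861 bases. In all, 20 models end within 100 bases of the stem-loop, 21 run on for over 100 bases, and 19 hold no such window. Hist1h1b and Hist1h2bc, described below, are among the 19.

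The genes lie in 4 clusters, with 48 of the 60 on chromosome 13, 9 on chromosome 3, 2 on chromosome 11 and Hist4h4 on chromosome 6. In 57 of the 60 the model has 1 exon. Hist1h2ap lies at chr13:21833026-21833507 on the minus strand, Hist1h1b at chr13:21779883-21780625 on the minus strand and Hist1h1c at chr13:23738808-23740367 on the plus strand (GRCm38). Several genes are near copies. None of the 50-base windows in the last 100 bases of Hist1h2ap was its own, and of all its windows 6.93% were. Reads near its end could therefore also come from a copy such as Hist1h2ao. The same holds for Hist2h2aa1, a copy of Hist2h2aa2, and for the end of Hist1h1e, which lies inside the model of Hist1h2be. Values for these 3 genes are therefore uncertain as to their gene of origin, and they are not the only ones. The ends of Hist1h3e, Hist1h3f, Hist1h2br and Hist1h2bn also held no window of their own. For Hist1h4n 54.9% of the windows at the end were its own, and 14.4% of all its windows. Whether strand was used in counting is not stated in the labels.

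RefSeq promoters (GRCm38.p6, 250 bases before to 50 after the start) were matched for 55 of the 60 genes. The 4 stretches below are the 150 bases before the annotated start of genes that behaved differently in the data, with motif letters in capitals: CCAAT (the CCAAT box), TATAAA (the TATA box), TTTGCAT (the core of the octamer motif) and AAACACA (known as the H1 box), searched on both strands.

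Hist1h2ap (chr13:21833508-21833657, minus strand): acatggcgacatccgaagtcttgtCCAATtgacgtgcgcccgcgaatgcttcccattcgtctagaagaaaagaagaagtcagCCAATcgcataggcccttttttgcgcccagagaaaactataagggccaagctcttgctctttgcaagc
Hist1h1b (chr13:21780626-21780775, minus strand): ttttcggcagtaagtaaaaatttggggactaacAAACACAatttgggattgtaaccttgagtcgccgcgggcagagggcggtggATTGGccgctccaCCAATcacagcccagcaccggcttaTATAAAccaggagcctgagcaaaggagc
Hist1h1c (chr13:23738657-23738806, plus strand): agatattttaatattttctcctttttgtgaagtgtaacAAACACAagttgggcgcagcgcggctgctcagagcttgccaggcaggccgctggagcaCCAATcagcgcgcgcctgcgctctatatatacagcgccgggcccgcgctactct
Hist1h4i (chr13:22041363-22041512, minus strand): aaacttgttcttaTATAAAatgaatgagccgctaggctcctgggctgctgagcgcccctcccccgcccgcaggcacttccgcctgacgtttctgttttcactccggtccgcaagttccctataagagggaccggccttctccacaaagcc

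CCAAT stood in 85.5% of the 55 promoters and in 37.4% of all 32851 RefSeq promoters. It was in all 5 H1, 15 H2A, 14 H2B and 10 H3 promoters and in 3 of 11 H4 promoters. TATAAA was in 56.4% of the histone promoters and 13.6% of all, and TTTGCAT in 20% and 4.63%. AAACACA was in 4 of the 5 H1 promoters, against 7.18% of all promoters. A match describes the exact letters only, at any position and on either strand, and does not place a working box. The TATAAA marked in Hist1h4i lies at the end of its stretch farthest from the start. Stretches with a differing letter were not marked. Hist1h1b and Hist1h1c both hold CCAAT and AAACACA, and their levels in these cells followed opposite orders, as described below.

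Before the results, the libraries need a description. The shPml library had 2268 barcodes and 4227187 UMIs and the shCTRL library 2244 barcodes and 5044925 UMIs, with no barcode under 500 UMIs. Barcodes with at most 10% mitochondrial UMIs were kept, 1754 in shPml and 856 in shCTRL, with median depths of 1300 and 4040 UMIs. The libraries shared 266 barcodes, 263 of them kept in shPml and 261 in shCTRL, and these made up 43.2% of the shPml and 72.4% of the shCTRL CD8 T cells with S phase UMIs. The main values are given with and without them. Cells were classed by UMIs of defining genes: CD8 T cells (Cd3 genes and Cd8a or Cd8b1, with Cd4 at 0), CD4 T cells (Cd3 genes and Cd4, with Cd8a and Cd8b1 at 0), B cells (at least 2 UMIs of Cd79a and Cd79b) and neutrophils (S100a8 and S100a9 at 1% of UMIs or more). All 6 genes of the B cell list were detected in both B cell classes, and all 6 of the neutrophil list in both neutrophil classes. B cells of the shPml library also held 2584 CPM of the 6 neutrophil markers, against 28.6 CPM in shCTRL. UMIs of 4 Y-linked genes were seen in 158 of 710 shPml and 12 of 239 shCTRL CD8 T cells and in no CD4 T cell, B cell or neutrophil. Outside the 4 classes they were seen in 87 of 761 shPml and 8 of 286 shCTRL cells. Whether the CD8 T cells had the same origin as the other classes, or in both libraries, was not tested. CPM, the unit of level used here, is a gene's or family's UMIs among 1000000 UMIs of the same cells.

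The 60 genes gave 4647 UMIs in the kept shPml cells (1250 CPM) and 3082 in the kept shCTRL cells (838 CPM). Hist1h2ap (H2A) alone gave 27.6% of these UMIs. With Hist1h1c (H1), it made up 51.3%, and the leading 10 genes made up 79.2%. The median gene had 32 UMIs, and 26 of the 60 had fewer than 20. Within a single comparison fewer genes reach that number, as given with each.

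In shPml, CD8 T cells with S phase UMIs had a higher histone level than those without. It was also above that of the whole CD4 T cell, B cell and neutrophil classes, which were not split here. S phase was read from 3 genes that are not histones: Rrm2 and Tyms, enzymes of nucleotide synthesis, and Pclaf, a partner of the replication clamp PCNA. In shPml, 199 CD8 T cells with at least 1 UMI of these genes had 2128 CPM of histone UMIs (1990 to 2273) and 511 cells without had 724 CPM (664 to 787). The log2 ratio was 1.56 (1.40 to 1.71), and 1.39 (1.18 to 1.61) without shared barcodes. Cells with the marker UMIs were deeper, with medians of 1778 and 1307 UMIs. After thinning every cell to 500 UMIs, 52.3% of the cells with S phase UMIs and 25.8% of those without had a histone UMI (unthinned, 83.9% and 47.4%). Few cells of the other named classes had S phase UMIs. With S phase UMIs, 6 shPml CD4 T cells had 3303 CPM, 193 cells outside the 4 classes 2699 CPM and 8 B cells 1217 CPM. Without the leading cell of each, these levels were 992, 1833 and 348 CPM, beside 1892 CPM in CD8 T cells. The B cell level was then below that of B cells without S phase UMIs, 705 CPM without their leading cell. Of the 193 cells outside the classes, 21 had Y-linked UMIs, which among the 4 classes were seen only in CD8 T cells. Whether some of these cells were CD8 T cells that missed the gate was not tested.

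By type, the log2 ratio was highest for H2A and lowest for H4. H2A stood at 1217 CPM in cells with S phase UMIs and 215 CPM in cells without, a log2 ratio of 2.50 (2.24 to 2.77). H3 stood at 89.4 and 34.7 CPM, a log2 ratio of 1.36 (0.60 to 2.15), from 63 UMIs in all genes of that type. H1 stood at 568 and 288 CPM, with a log2 ratio of 0.98 (0.70 to 1.25). H2B had a log2 ratio of 0.70 (0.14 to 1.26). H4 was 126 CPM in cells with and 107 CPM in cells without, and its interval of -0.30 to 0.76 included 0. Without shared barcodes, the log2 ratios were 2.15 for H2A, 1.15 (-0.07 to 2.32) for H3, 1.01 for H2B, 0.94 for H1 and 0.28 for H4.

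Within the family the difference sat in few genes. Of the 60, 10 had at least 20 UMIs over both sides, and 3 of these were at least 2-fold higher in shPml CD8 T cells with S phase UMIs and 0 were 2-fold lower. Of all 5622 genes tested, 7.92% were that much higher and 7.65% that much lower. The other 50 histone genes had too few UMIs.

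Hist1h2ap stood at 985 CPM in cells with S phase UMIs and 140 CPM in cells without, a log2 ratio of 2.81 (2.50 to 3.14). It was seen in 110 of 199 and in 58 of 511 cells. A single cell held 119 of its 408 UMIs, and without the leading cell of each class the log2 ratio was 2.53 (2.20 to 2.88). Hist1h1b, a linker histone gene (H1f5 in RefSeq), stood at 309 and 49.4 CPM, a log2 ratio of 2.65 (2.11 to 3.21). Its UMIs were spread over 65 of 199 cells, with at most 6 in any cell. Hist1h2ae, a second H2A gene, stood at 157 and 28.0 CPM, a log2 ratio of 2.49 (1.76 to 3.27). By the lower bound of the interval these 3 genes ranked 5, 8 and 16 among all genes tested, where ranks 1 to 3 belong to the gate genes. Without shared barcodes, their log2 ratios were 2.41, 2.59 and 2.36.

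The other H1 genes had smaller differences or the opposite order. Hist1h1a had 9 UMIs in cells with S phase UMIs (21.7 CPM) and 7 in cells without (9.35 CPM), too few to be compared. Hist1h1e stood at 126 and 76.1 CPM, a log2 ratio of 0.72 (0.15 to 1.29), and of 0.11 (-0.79 to 0.94) without shared barcodes. Hist1h1d had a log2 ratio of -0.54 (-1.92 to 0.70). Hist1h1c (H1f2 in RefSeq) stood at 91.8 CPM in cells with S phase UMIs and 125 CPM in cells without, a log2 ratio of -0.45 (-1.03 to 0.11). As shares of histone UMIs, H1 made up 26.7% (23.8 to 29.7) in cells with S phase UMIs and 39.9% (35.7 to 44.1) in cells without. This difference rested on Hist1h2ap. With that gene left out, H1 gave 235 of 473 UMIs in cells with S phase UMIs and 216 of 437 in cells without. The other 4 tested genes, Hist1h4d, Hist1h4i, Hist3h2ba and Hist1h2bc, had log2 ratios from 0.86 (-0.37 to 2.08) for Hist1h4d to -0.80 (-2.27 to 0.48) for Hist1h2bc, and all 4 intervals included 0. With Hist1h2ap left out, the family still had 1142 CPM in cells with S phase UMIs and 583 CPM in cells without.

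**Figure D1:**
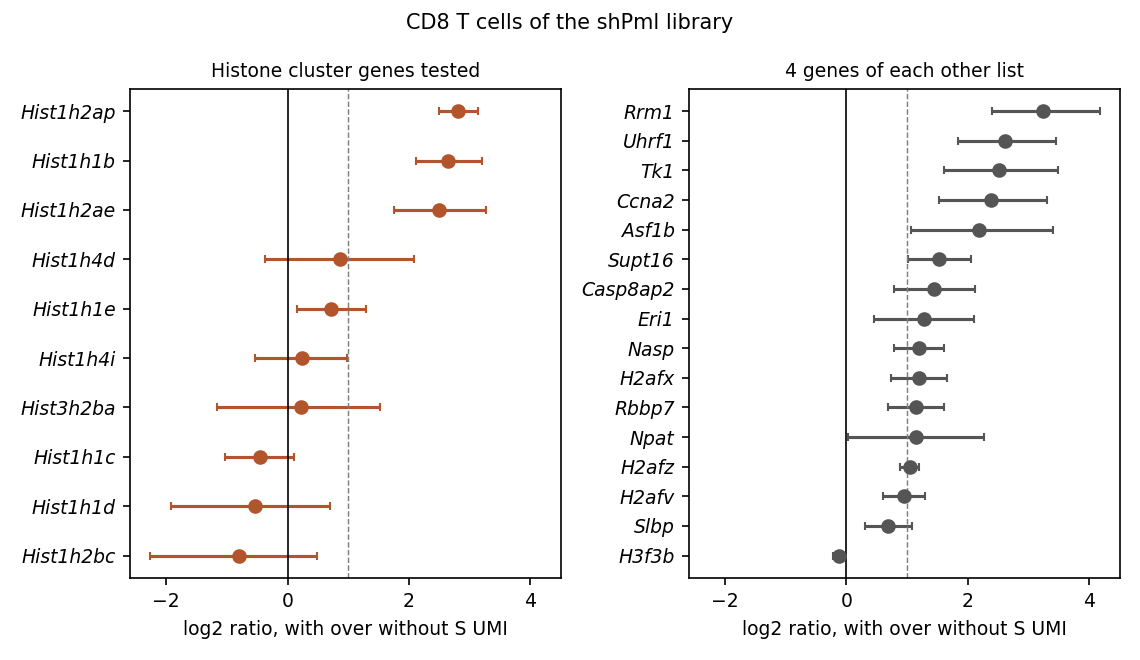
Log2 ratio of CPM in CD8 T cells with over without S phase UMIs (horizontal axis) in the shPml library. The left panel holds the 10 histone cluster genes with at least 20 UMIs. The right panel holds 4 genes from each list of S phase, histone mRNA processing, chaperone and import, and variant genes. These have the interval bound farthest from 0 in their list. Bars are exact 95% counting intervals, the dashed line marks a 2-fold difference, and Hist1h2ap, Hist1h1b and Hist1h2ae stand apart from the other 7 histone genes.

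A list of genes reported to give polyadenylated mRNA outside S phase had the other order. The list holds Hist1h1c and 4 H2B genes, of which Hist1h2bc, Hist1h2be and Hist2h2be were measured. The symbol Hist1h2bd is not among the 67 histone cluster symbols of the deposited gene list. In shPml CD8 T cells the 4 measured genes summed to 116 CPM with S phase UMIs and 160 CPM without, a log2 ratio of -0.47 (-0.98 to 0.03). In shCTRL CD8 T cells they summed to 67.6 and 187 CPM, a log2 ratio of -1.47 (-2.81 to -0.39). CD4 T cells had -1.63 (-3.04 to -0.43) in shPml and -1.13 (-1.91 to -0.43) in shCTRL, and B cells -2.70 (-4.37 to -1.40) and -1.46 (-3.11 to -0.20). The list was lower in cells with S phase UMIs in all 6 of these comparisons, and the interval excluded 0 in 5. Without shared barcodes the interval excluded 0 in 3 of the 6, and the value was -0.18 (-0.93 to 0.50) in shPml CD8 T cells and -0.95 (-2.49 to 0.32) in shPml CD4 T cells. Some of the cells with S phase UMIs are few: 6 CD4 T cells and 8 B cells in shPml, and 23 and 6 in shCTRL. Hist1h1c gave most list UMIs: 38 of 48 with and 94 of 120 without S phase UMIs in shPml CD8 T cells. In shCTRL CD8 T cells it gave 4 of 7 and 153 of 166. There Hist1h2bc had the opposite order, at 29.0 and 6.77 CPM from 3 and 6 UMIs. In all CD4 T cells Hist1h1c gave 31 of 42 list UMIs in shPml and 205 of 223 in shCTRL. In all B cells it gave 55 of 67 and 132 of 140. The sums thus describe mainly this gene, and the list without it was not summed.

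Genes that act with the histones in S phase were described from lists of other genes. Of 23 S phase genes 21 were tested and 20 were at least 2-fold higher in shPml CD8 T cells with S phase UMIs, with a median log2 ratio of 1.80 where all genes tested had 0.04. Rrm1, a subunit of ribonucleotide reductase, had a log2 ratio of 3.24 (2.40 to 4.18), and Uhrf1, which maintains DNA methylation at the fork, had 2.62 (1.84 to 3.46). Of 12 histone chaperone and import genes 11 were tested and 7 were at least 2-fold higher (median 1.15). Asf1b, a chaperone of H3 and H4, had a log2 ratio of 2.18 (1.07 to 3.40). Supt16, a subunit of the FACT chaperone, had 1.53 (1.02 to 2.05), and Nasp, a carrier of H3 and H4, had 1.20 (0.79 to 1.60). Of 12 genes of histone mRNA processing 9 were tested and 4 were at least 2-fold higher (median 0.69). Casp8ap2, known as FLASH, which takes part in cutting the mRNA end, had 1.44 (0.79 to 2.11). Eri1, an exonuclease that trims and degrades the histone mRNA end, had 1.27 (0.46 to 2.10). Slbp, the stem-loop binding protein, stood at 256 and 159 CPM, a log2 ratio of 0.69 (0.30 to 1.08). Without shared barcodes, 15 of 16 S phase genes, 5 of 9 chaperone and import genes and 2 of 5 processing genes tested were at least 2-fold higher. These genes were chosen for their known link to S phase, which the gate reads too. Genes of G2 and mitosis stood higher as well: of 13, 10 were tested and 7 were at least 2-fold higher (median 1.71). Without shared barcodes, 5 of 5 tested were (median 2.12), beside a median of 1.74 for the S phase genes. Aurkb, Mki67 and Top2a were among the 20 genes with the highest lower bound. Cells taken by the gate were thus not set apart from the others by S phase genes alone.

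Variant histones are mostly made from polyadenylated mRNA throughout the cell cycle and can take the place of the replication-dependent ones. Of 10 variant genes 8 were tested and 2 were at least 2-fold higher in the cells with S phase UMIs, against 7.92% of all genes. H2afx, the variant phosphorylated at DNA breaks, had a log2 ratio of 1.19 (0.73 to 1.65). H2afz, which encodes H2A.Z, had 1.04 (0.89 to 1.19) and stood at 1891 and 920 CPM. H3f3b, which encodes H3.3, stood at 3502 CPM in cells with S phase UMIs and 3820 CPM in cells without, a log2 ratio of -0.13 (-0.22 to -0.03).

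**Figure D2:**
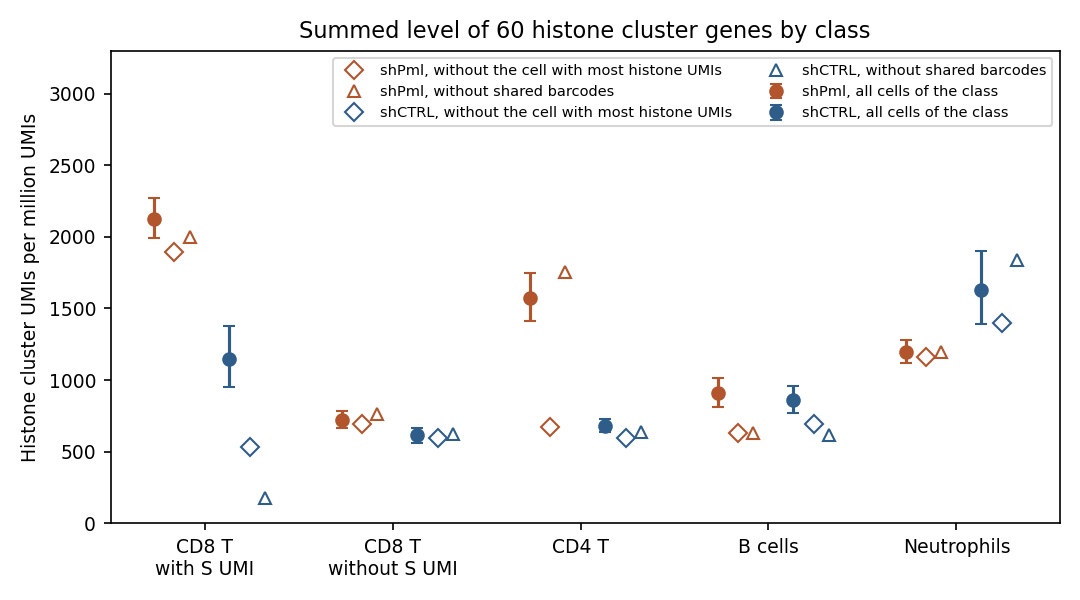
Summed level of the 60 histone cluster genes in CPM (vertical axis) in 5 cell classes (horizontal axis) of each library. Filled points carry exact 95% counting intervals, diamonds leave out the cell with the most histone UMIs and triangles leave out shared barcodes. The shCTRL value for CD8 T cells with S phase UMIs went from 1149 to 530 and 176 CPM in the last pair, and that of shPml CD4 T cells from 1573 to 672 CPM without 1 cell.

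In the shCTRL library the S phase difference of the family did not hold without its leading cell or the shared barcodes. There, 29 CD8 T cells with S phase UMIs had 1149 CPM and 210 cells without had 613 CPM, a log2 ratio of 0.91 (0.61 to 1.19). A single cell held 76 of the 119 histone UMIs, and without the leading cell of each class the log2 ratio was -0.17 (-0.65 to 0.28). Of the 29 cells 21 shared a barcode with the shPml library, and the 8 others had 8 histone UMIs (176 CPM), a log2 ratio of -1.83 (-3.05 to -0.84). No order can be read for shCTRL CD8 T cells from so few cells. Of the 60 genes 6 were tested there, with 2 at least 2-fold higher and 1 at least 2-fold lower, beside 8.20% and 12.3% of the 5111 genes tested. Hist1h2ap stood at 618 and 51.9 CPM, a log2 ratio of 3.57 (3.01 to 4.15), of 1.73 (0.75 to 2.62) without the leading cells and of -0.81 (-6.17 to 1.79) without shared barcodes. Hist1h4i had 1.16 (-0.43 to 2.50). Hist1h1c stood at 38.6 and 173 CPM, a log2 ratio of -2.16 (-4.05 to -0.77), and kept its sign without the leading cells at -1.71 (-3.60 to -0.32) and without shared barcodes at -2.08 (-5.14 to -0.19).

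Histone UMIs were concentrated in single cells in both libraries. There were 4 cells with at least 50 histone UMIs in shPml and 4 in shCTRL, and they held 17.6% and 20.9% of the histone UMIs of the kept cells. All 8 had UMIs of the S phase genes and of the mitotic genes, and 7 of the 8 had a barcode found in the other library too. The highest had 367 histone UMIs of 66273 (0.554%) and belonged to shCTRL, and the next had 341 of 31159 (1.09%) and belonged to shPml. Both were outside the 4 cell classes. Hist1h2ap made up from 48.1% to 85.9% of the histone UMIs in these 8 cells. In the other library, the 7 shared barcodes had from 644 to 4933 UMIs.

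CD8 T cells were also split by UMIs of 5 mitotic genes (Ube2c, Cdc20, Ccnb1, Ccnb2 and Plk1). In shPml, 83 cells with both kinds of UMIs had 2825 CPM of histone UMIs (2592 to 3074). The 116 cells with only S phase UMIs had 1528 CPM and the 66 cells with only mitotic UMIs had 1479 CPM, and these intervals overlapped (1370 to 1699 and 1254 to 1732). The 445 cells with neither had 603 CPM (544 to 666). Cells with mitotic UMIs but no UMI of Rrm2, Tyms or Pclaf thus stood above the cells with neither, by a log2 ratio of 1.29 (1.02 to 1.57). Without shared barcodes, the 4 levels were 2549, 1669, 1871 and 630 CPM. In shCTRL the 4 gates held 8, 21, 18 and 192 cells, and their levels were 2877, 482, 690 and 609 CPM in the same order. In the first of these a single cell held 91.6% of the histone UMIs.

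**Figure D3:**
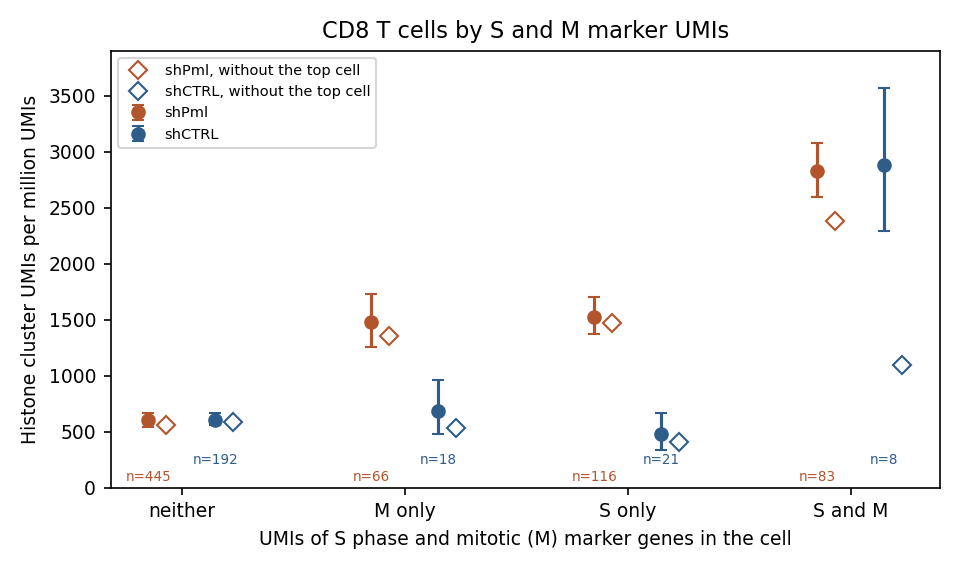
Histone cluster level in CPM (vertical axis) in CD8 T cells split by UMIs of S phase and mitotic marker genes (horizontal axis), with n cells. Filled points carry exact 95% counting intervals and diamonds leave out the cell with the most histone UMIs. In shPml the level steps from 603 CPM with neither to 2825 CPM with both, and in both libraries the cells with neither are near 600 CPM.

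Neutrophils, which do not divide once mature, had a histone level above that of CD8 T cells without S phase UMIs. The level was 1197 CPM in 182 shPml neutrophils (1117 to 1281) and 1631 CPM in 24 shCTRL neutrophils (1392 to 1898). S phase UMIs were found in 3 of the 182 and 0 of the 24 cells, and mitotic UMIs in 1 cell of each library. A count of 0 among 24 cells allows, at 3 counts, a share of cells with such a UMI of up to 12.5%. Over CD8 T cells without S phase UMIs of the same library the log2 ratio was 0.73 (0.57 to 0.88) in shPml and 1.41 (1.15 to 1.66) in shCTRL, and without shared barcodes 0.65 (0.48 to 0.82) and 1.55 (1.26 to 1.84). After thinning, 36.3% of the shPml neutrophils had a histone UMI, against 25.8% of the CD8 T cells without S phase UMIs (unthinned, 72.5% and 47.4%, with median depths of 3413 and 1307 UMIs).

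The neutrophil UMIs came mostly from Hist1h1c. It gave 511 of 830 histone UMIs in shPml (737 CPM, 674 to 804) and 111 of 166 in shCTRL (1090 CPM). It was seen in 91 of the 182 shPml cells and 14 of the 24 shCTRL cells, with at most 27 UMIs in a cell. After thinning it was seen in 22.5% of shPml neutrophils and in 6.65% of CD8 T cells without S phase UMIs. Unthinned, these shares were 50.0% and 14.5%. Its log2 ratio over CD8 T cells without S phase UMIs was 2.55 (2.23 to 2.89) in shPml and 2.66 (2.29 to 3.02) in shCTRL, and 2.57 (2.17 to 2.95) in shCTRL without the leading cell of each class. With Hist1h1c left out, the family had 460 CPM in shPml neutrophils and 598 CPM in CD8 T cells without S phase UMIs, a log2 ratio of -0.38 (-0.59 to -0.17), and of -0.47 (-0.69 to -0.25) without shared barcodes. In shCTRL it had 540 and 441 CPM, a log2 ratio of 0.29 (-0.14 to 0.70), and of 0.52 (0.03 to 0.98) without shared barcodes. The 2 values without Hist1h1c thus had opposite signs, and over all barcodes the shCTRL interval included 0. With Hist1h2ap left out too, the shPml levels were 441 CPM in neutrophils and 458 CPM in CD8 T cells without S phase UMIs. That is a log2 ratio of -0.05 (-0.28 to 0.17), so the lower shPml value rested on Hist1h2ap. In shCTRL these levels were 501 and 389 CPM.

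In the shPml library 11 of the 60 genes were tested between neutrophils and CD8 T cells without S phase UMIs. At least 2-fold higher in neutrophils were 5, beside 20% of the 5767 genes tested, and at least 2-fold lower were 5, beside 51.0%. The higher ones were Hist1h1c, Hist1h2bc, Hist1h2be, Hist2h2aa1 and Hist1h4h. Hist1h2bc stood at 133 and 29.4 CPM (log2 2.18, 1.49 to 2.92), and at 118 CPM in shCTRL neutrophils. Hist2h2aa1 stood at 83.6 and 16 CPM (log2 2.38, 1.47 to 3.42), but had 1 UMI in shCTRL neutrophils (9.82 CPM). Hist1h2be stood at 31.7 and 4.01 CPM (log2 2.99, 1.25 to 5.37), and at 78.6 CPM in shCTRL neutrophils. Hist1h4h had a log2 ratio of 1.21 with an interval of -0.17 to 2.75.

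The genes that led in S phase were low in neutrophils. Hist1h2ap stood at 18.7 CPM in shPml neutrophils, against 140 CPM in CD8 T cells without S phase UMIs, a log2 ratio of -2.90 (-3.86 to -2.07). Hist1h1b had 1 UMI in shPml neutrophils (1.44 CPM) and 0 in the 24 shCTRL cells. Hist1h2ae had 0 UMIs in shPml neutrophils and was at least 6.48-fold lower than in CD8 T cells without S phase UMIs, with 3 counts for the class as the lowest level assumed. Hist1h1e was lower too, with a log2 ratio of -2.26 (-3.34 to -1.32), and Hist1h1d had -1.11 (-2.42 to 0.08). Hist1h4i was at 63.4 CPM in shPml and 68.8 CPM in shCTRL neutrophils, beside 53.4 and 25.9 CPM in CD8 T cells without S phase UMIs. H3 as a type had few UMIs, with 4 UMIs in shPml (5.77 CPM) and 0 in shCTRL.

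**Figure D4:**
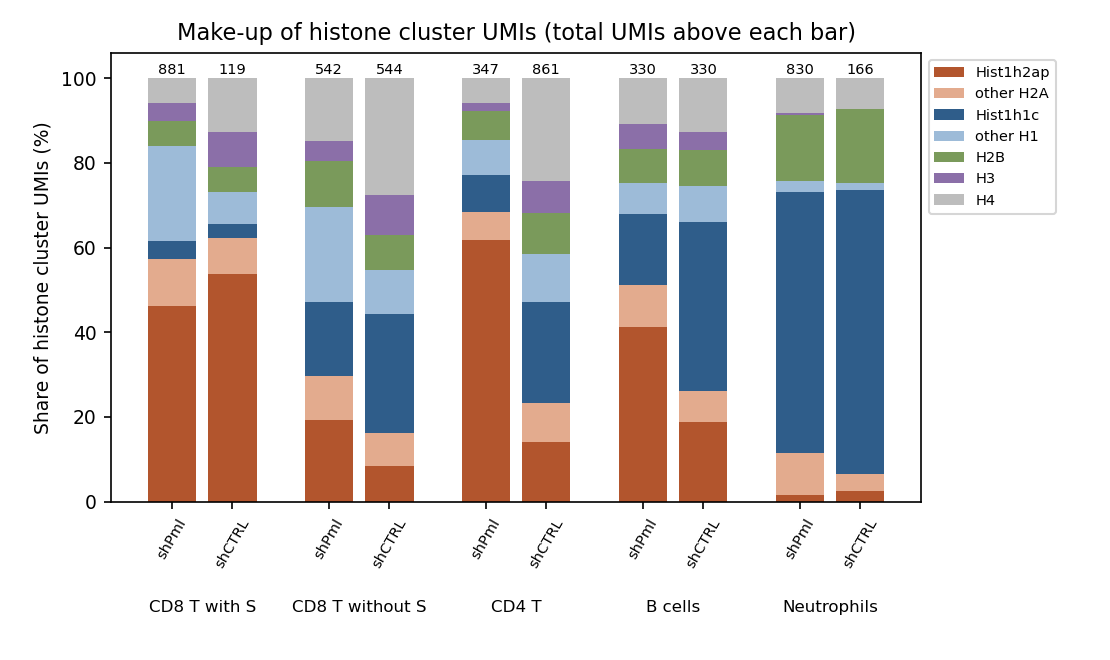
Share of histone cluster UMIs in percent (vertical axis) from Hist1h2ap, the other H2A genes, Hist1h1c, the other H1 genes and the H2B, H3 and H4 genes, by class and library (horizontal axis), with the number of UMIs above each bar. Hist1h1c fills most of both neutrophil bars, and Hist1h2ap is the largest block in CD8 T cells with S phase UMIs in both libraries.

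The make-up of the family differed accordingly. H1 gave 64.2% (60.8 to 67.5) of histone UMIs in shPml and 68.7% (61.0 to 75.6) in shCTRL neutrophils. In CD8 T cells without S phase UMIs it gave 39.9% and 38.6%, and in those with S phase UMIs 26.7% and 10.9%. In shPml the lower H1 share with S phase UMIs rested on Hist1h2ap, as given above. H2A gave 57.2% and 62.2% in the CD8 T cells with S phase UMIs and 11.4% and 6.63% in neutrophils. H4 gave 14.8% in shPml and 27.6% in shCTRL CD8 T cells without S phase UMIs. By gene model, the 20 genes whose annotation ends within 100 bases of the stem-loop gave 54.5% (51.1 to 57.8) of histone UMIs in shPml CD8 T cells with S phase UMIs and 13.6% (11.4 to 16.1) in neutrophils. The 21 genes whose models run on gave 27.0% and 74.1%. These shares rest on Hist1h2ap and Hist1h1c: without both, the first group gave 16.6% in CD8 T cells with S phase UMIs and 32.7% in neutrophils, the opposite order.

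CD4 T cells and B cells had few cells with S phase UMIs, and their levels hung on them. In shPml, 44 CD4 T cells had 1573 CPM, of which 1 cell held 208 of 347 UMIs, and without it the level was 672 CPM. In shCTRL, 239 CD4 T cells had 680 CPM (592 CPM without the leading cell). Without S phase UMIs, CD4 T cells stood at 506 CPM in shPml and 619 CPM in shCTRL, a log2 ratio of -0.29 (-0.67 to 0.07). B cells stood at 908 CPM in 58 shPml cells and 859 CPM in 73 shCTRL cells, and at 633 and 690 CPM without the leading cell of each. Over all barcodes the log2 ratio of cells with over cells without S phase UMIs was 2.71 (2.32 to 3.11) in shPml and 0.69 (0.46 to 0.92) in shCTRL CD4 T cells, and 0.71 (0.38 to 1.03) and 1.84 (1.47 to 2.19) in B cells.

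Without the leading cell of each set of cells, that order was kept only by shPml CD4 T cells of these 4, at 992 and 451 CPM. In shCTRL CD4 T cells the levels were then 438 CPM with and 601 CPM without S phase UMIs. In B cells they were 348 and 705 CPM in shPml and 601 and 605 CPM in shCTRL. Without shared barcodes the log2 ratio was 3.36 (2.96 to 3.77) in shPml and -0.84 (-1.52 to -0.22) in shCTRL CD4 T cells, and -0.97 (-1.65 to -0.34) and -0.04 (-1.51 to 1.11) in B cells. In 3 of the 4 the order thus rested on single cells with shared barcodes.

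Between the libraries, the histone level of CD8 T cells was higher in shPml: 1224 CPM in 710 cells against 670 CPM in 239 cells, a log2 ratio of 0.87 (0.74 to 1.01), and 0.78 (0.61 to 0.95) without shared barcodes. The share of CD8 T cells with S phase UMIs differed too, at 28.0% in shPml and 12.1% in shCTRL, although shCTRL CD8 T cells were deeper (median 4022 against 1397 UMIs). Among CD8 T cells without S phase UMIs the log2 ratio was 0.24 (0.06 to 0.41), and 0.28 (0.08 to 0.48) without shared barcodes. Among those without S phase or mitotic UMIs the levels were 603 and 609 CPM, a log2 ratio of -0.01 (-0.21 to 0.18). The sex-linked genes also separated the CD8 T cells of the libraries, with UMIs of Xist in 22 of 710 shPml and 130 of 239 shCTRL cells, and the part of this in the result was not tested.

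Gene by gene, the CD8 T cell difference had both directions. Of the 60 genes 17 were tested, 7 were at least 2-fold higher in shPml and 4 at least 2-fold lower, beside 11.9% and 10.1% of the 7343 genes tested. Hist1h1b stood at 142 and 12.1 CPM, a log2 ratio of 3.55 (2.71 to 4.53). Hist1h2ae stood at 73.9 and 9.09 CPM (3.02, 2.03 to 4.20) and Hist1h2ap at 441 and 111 CPM (1.99, 1.69 to 2.30). Hist1h1e had a log2 ratio of 1.49 (0.92 to 2.10), Hist3h2ba of 1.71 (0.37 to 3.29), Hist1h2bc of 1.46 (0.34 to 2.72) and Hist3h2a of 1.27 (-0.14 to 2.90). On the other side, Hist4h4, the single gene of the chromosome 6 cluster, stood at 6.88 CPM in shPml and 53.5 CPM in shCTRL, a log2 ratio of -2.96 (-4.24 to -1.88). Hist1h4n had -2.73 (-5.15 to -0.94), Hist1h3a had -1.61 (-2.58 to -0.72) and Hist1h4h had -1.15 (-2.50 to 0.10). H4 as a type was lower in shPml by 0.55 on the log2 scale (113 against 167 CPM), while H2A was higher by 1.81. Without shared barcodes these differences were -0.71 (-1.13 to -0.30) and 2.31 (1.90 to 2.73).

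Among CD8 T cells without S phase or mitotic UMIs 12 genes were tested, 4 were at least 2-fold higher in shPml (9.79% of all genes) and 3 at least 2-fold lower (9.48%). Hist4h4 stood at 10.8 and 56.2 CPM, a log2 ratio of -2.37 (-3.77 to -1.22), and -2.75 (-4.45 to -1.42) without shared barcodes. Hist1h2bc stood at 29.4 and 5.98 CPM (2.30, 0.83 to 4.08). Hist1h2ap stood at 110 and 43.1 CPM (1.35, 0.75 to 1.97). Hist1h1c stood at 115 and 177 CPM, a log2 ratio of -0.63 (-1.05 to -0.21). The sums of these cells were close in the 2 libraries while single genes stood on either side.

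**Figure D5:**
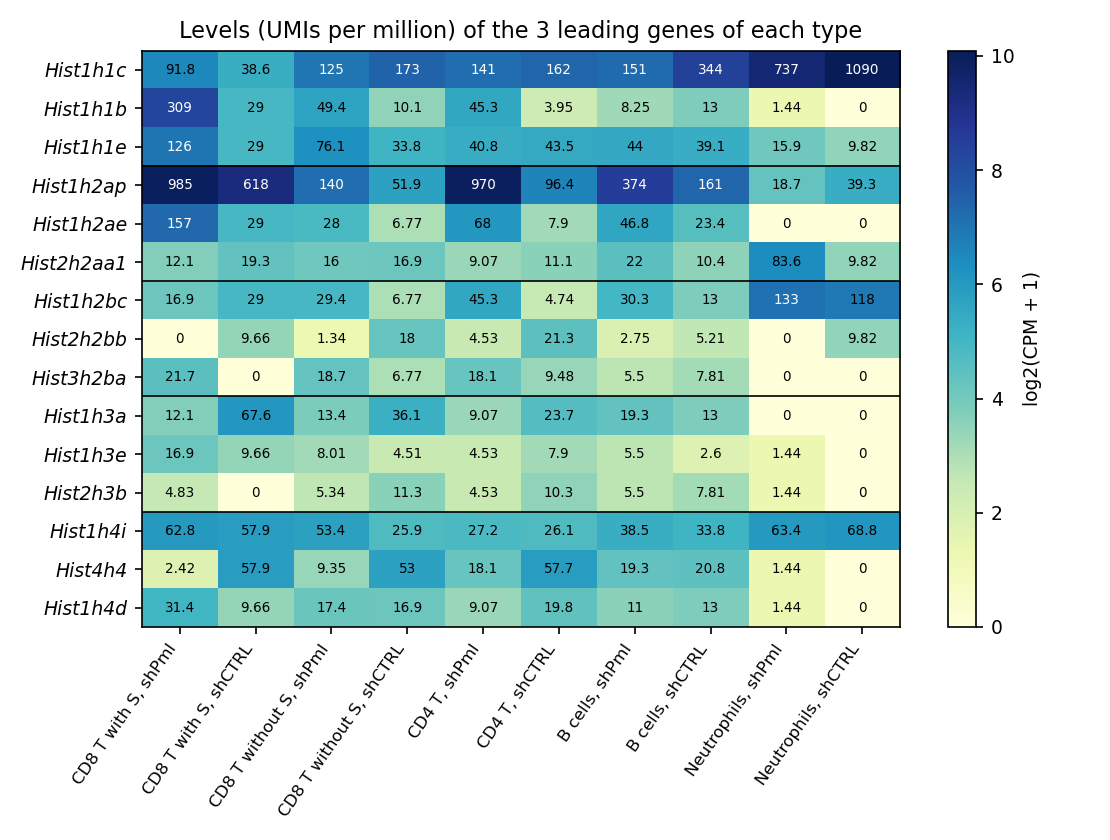
Levels in CPM (numbers; colour, log2 of the level plus 1) of the 3 genes of each histone type with the most UMIs (rows; H1, H2A, H2B, H3 and H4 from top to bottom) in 5 classes of both libraries (columns). Hist1h1c is highest in neutrophils and Hist1h2ap in CD8 T cells with S phase UMIs, and Hist4h4 stands above 50 CPM only in the 3 T cell columns of shCTRL.

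The other classes are described by the family and its leading genes. In CD4 T cells the family was higher in shPml by 1.21 (1.03 to 1.39), and by 0.18 (-0.09 to 0.44) without the leading cell of each library. Hist1h2ap stood at 970 and 96.4 CPM there (232 and 29.7 CPM without the leading cells), and in CD4 T cells without S phase UMIs and without the leading cells at 22.9 and 21.8 CPM. Hist4h4 stood at 18.1 and 57.7 CPM in CD4 T cells, a log2 ratio of -1.67 (-3.58 to -0.25). In B cells the family was at 0.08 (-0.14 to 0.30). Hist1h2ap was higher in shPml B cells by 1.21 (0.77 to 1.67) and Hist1h1c lower, at 151 and 344 CPM, a log2 ratio of -1.18 (-1.66 to -0.72) and of -0.66 (-1.22 to -0.11) without shared barcodes. In neutrophils the family was lower in shPml, with a log2 ratio of -0.45 (-0.69 to -0.20), of -0.27 (-0.54 to 0.00) without the leading cells and of -0.62 (-0.89 to -0.34) without shared barcodes. Genes of granules made in immature neutrophils also differed. Ngp stood at 2286 CPM in shPml and 206 CPM in shCTRL neutrophils, Ltf at 809 and 29.5 CPM, and Camp at 808 and 39.3 CPM. These UMIs came from few cells, with Ngp in 17 and Camp in 6 of the 182 shPml cells, and their part in the histone result was not tested. Hist1h1c stood at 737 and 1090 CPM, a log2 ratio of -0.57 (-0.86 to -0.26), and Hist2h2aa1 at 83.6 and 9.82 CPM (3.09, 0.55 to 8.42, from 58 UMIs and 1 UMI). The 24 shCTRL neutrophils limit what these ratios can show.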

How the data were processed

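For both libraries the authors deposited raw UMI counts, whole numbers by gene and barcode that were not normalized. Cell Ranger 4.0.0, R 4.3.3, Seurat 4.4.0 and the mm10 build are listed in the submitters' processing notes. The gene annotation, the kit chemistry and any filter before deposit are not given in the sources used here.

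Python 3.11.15 with NumPy 2.4.6, SciPy 1.17.1 and pandas 2.3.3 was used. Barcodes with over 10% mitochondrial UMIs were left out, 22.7% in shPml and 61.9% in shCTRL. No doublet caller was run. Barcodes that met more than 1 class gate, 1 in shPml and 5 in shCTRL, were left out as an alternative. UMIs were summed per class and library and given per 1000000 UMIs. Levels carry exact Poisson, shares exact Clopper-Pearson and ratios exact conditional Poisson intervals, at 95%. The floor for 0 counts was 3. A gene was compared ("tested") with at least 20 summed UMIs, and called at 2-fold. Thinned values used 500 UMIs per cell. No p-value was computed. The interval was tested only on simulated independent Poisson counts. These hold no gathering of UMIs in single cells, so its coverage for such UMIs was not tested.

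Named genes were the 3 of each histone type with the most UMIs, up to 10 per comparison and direction by the interval bound nearest 0, those above the median gene in neutrophils, and 2 to 4 of each other list. Members, lists and gates were chosen with earlier results of these data known. Gene models are GENCODE M21 (GRCm38), matched by gene ID for all 67 genes, and promoters are from RefSeq (GRCm38.p6).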

Additional observations from a re-analysis of the deposited data

Results flagged for a closer look

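Barcodes over the mitochondrial limit entered no comparison, and histone UMIs were present there as well. The 514 shPml barcodes had 850 CPM (772 to 934) and the 1388 shCTRL barcodes had 649 CPM (607 to 693), with median depths of 712 and 848 UMIs. UMIs of the S phase genes were in 10.9% of the former and 3.17% of the latter.

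The H1 genes as a type went opposite ways in the libraries when CD8 T cells with S phase UMIs were set against those without. The log2 ratio was 0.98 (0.70 to 1.25) in shPml and -0.92 (-1.85 to -0.11) in shCTRL. The difference between the libraries was not tested. The shCTRL value rests on 13 H1 UMIs in 29 cells, 21 of them with barcodes shared with shPml. Hist1h1b gave 128 of the 235 H1 UMIs in the shPml cells with S phase UMIs.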

How the results depend on the processing

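Each of the 8 main values was recomputed under 12 alternatives, and 66 of the 96 recomputed values stayed within the counting interval of the value reported (for the count of genes, between 2 and 4), 27 moved past it, and the 3 others turned the sign of a value whose interval excluded 0. Some of the 66 could not change. The neutrophil gate of 5% enters only the neutrophil value, and the gate of at least 2 S phase UMIs enters no comparison between the libraries. The count of 66 is thus no measure of how stable the values are. The log2 ratio of the family in CD8 T cells with over without S phase UMIs in shPml (1.56) was 1.98 at a mitochondrial limit of 5%, 1.39 without shared barcodes, 1.16 after thinning, 1.30 as a mean over cells and 0.97 without Hist1h2ap. In shCTRL (0.91) it was -1.83 without shared barcodes, -0.17 without the leading cells and -0.08 without Hist1h2ap, and it was 1.41 at 5%, 1.35 after thinning, 2.28 with at least 2 S phase UMIs and 1.20 as a mean over cells. Between the libraries, the CD8 T cell value (0.87) was 0.62 after thinning, 0.59 as a mean over cells and 0.49 without Hist1h2ap. The CD4 T cell value (1.21) was 1.99 at 5%, 1.46 without shared barcodes, 0.25 after thinning, 0.39 as a mean over cells, 0.18 without the leading cells and 0.05 without Hist1h2ap. The B cell value (0.08), whose interval included 0, was -0.42 at 5%, -0.39 without Hist1h2ap and -0.12 without the leading cells. The neutrophil value (-0.45) was -0.09 after thinning, -0.17 with a gate at 5% of UMIs and -0.14 as a mean over cells. The H1 share in shPml CD8 T cells with S phase UMIs (26.7%) was 15.2% at 5%, 31.1% as a mean over cells, 31.2% without the leading cell and 49.7% without Hist1h2ap. The count of 3 genes at least 2-fold higher ranged from 2 to 4. Leaving out Hist1h2ap or the leading cells removes UMIs by construction, and for the other alternatives the cause was not tested. No paired analysis was possible because only 1 library stood for each group. Depth limits the family to 34 genes with at least 20 UMIs in the kept cells.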
